A study of Mus musculus with 2 samples.

Results

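Endothelial cells of MC38 tumours are described here, 74 of the 15852 cell barcodes that passed the quality limits, 26 in the control library and 48 in the SHP099 library. They were chosen by raw counts of 4 endothelial genes, Cdh5, Plvap, Egfl7 and Gpihbp1, which had to give at least 3 UMIs (distinct captured RNA molecules, counted by their molecular identifiers) with at least 2 of the 4 genes detected. Barcodes with any UMI of the leukocyte gene Ptprc, with more than 3 UMIs of the myeloid gene Tyrobp, or with more than 1 UMI of Igf2bp2, Igf2bp3 and Hmga2, which mark the tumour cells, were left out. Because these values chose the cells, the levels of the 4 genes are a description only.

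MC38 is a mouse colon carcinoma line. It was grown in the flank of C57BL/6 mice, and single-cell RNA sequencing (10x Chromium, 3′ end) was run on the dissociated tumours to compare treated with control animals. The treated group received SHP099, an allosteric inhibitor of the phosphatase SHP2 (gene Ptpn11), by mouth at a daily dose of 5 mg/kg for 14 days, starting 5 days after inoculation when tumours averaged 100 mm3. The control group is labelled untreated, while the protocol names PBS. Each group had 6 mice and gave 1 library, of 126218180 UMIs in control and 112901642 UMIs in SHP099. All animals carried the same line, no sort for endothelial cells is mentioned, and the number of tumours pooled into each library is not stated. With 1 library per group no difference has a replicate check and none was tested. The 95% intervals below cover counting error only, and higher or lower always refers to SHP099 relative to control.

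Endothelial cells line the vessels that feed a tumour. VEGF from hypoxic tissue acts on their receptors Kdr and Flt1, and Notch signalling divides a sprout into tip cells, which lead it and express Esm1, Apln, Dll4 and Cxcr4, and the stalk cells that follow. SHP2 carries signals from receptor tyrosine kinases, such as the VEGF receptors, to RAS and ERK, and interferons act on endothelium to raise chemokines, guanylate-binding proteins and antigen presentation.

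The label, tumour endothelial cells, was checked with 11 endothelial genes that the rule did not use (Pecam1, Kdr, Flt1, Tie1, Tek, Cldn5, Esam, Emcn, Eng, Ramp2 and Robo4). A median of 9 of the 11 was detected per control cell and 8.5 per SHP099 cell. The endothelial sialomucin gene Emcn had a UMI in 61 of the 74 cells and stood at 604 CPM (UMIs of the gene per 1000000 UMIs of all members summed), against 0.196 CPM in phagocytes, the class with the next level. The tight junction gene Cldn5 stood at 471 CPM against 0.367 CPM in the next class, and the tip cell proteoglycan gene Esm1 at 243 CPM against 0.733 CPM. Fabp4, a fatty acid carrier of capillary endothelium, stood at 1905 against 10.7 CPM, and Flt1, a VEGF receptor, at 640 against 3.97 CPM. Other genes that led the comparison with phagocytes, T cells, collagen-rich barcodes and tumour cells were Mmrn2, Myct1, Esam, Lrg1, Adgrl4, Adgrf5, Mcam, Apold1 and Stc1. Those classes were limited to few UMIs of the 4 rule genes, which kept barcodes with more endothelial RNA out of them. So most of the 74 member barcodes carried the RNA of endothelium, as the label says.

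Some barcodes did not. In SHP099, 3 barcodes of 18669, 23764 and 29310 UMIs had no UMI of Xist, the X-inactivation transcript that most host cells here carried and tumour cells lacked, and showed 0 to 2 of the 11 further markers. Another barcode of 46796 UMIs held 273 UMIs of Col1a1 and 253 of Col3a1, the fibrillar collagens of fibroblasts. In control, 1 barcode of 17754 UMIs held 20 UMIs of the pericyte gene Rgs5 and 1 of 6584 UMIs held 59 UMIs of T and NK cell markers. Cells with at least 3 of the 11 further markers and with no marker list of another cell type above 0.3% of their UMIs are called core cells from here on. This limit was chosen after the data were seen. The core held 23 control and 38 SHP099 cells. The 3 control and 10 SHP099 barcodes outside it carried 9.84% of all member UMIs in control and 41.7% in SHP099.

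Near the edge of the rule, the 19 control and 26 SHP099 barcodes with exactly 2 UMIs of the 4 genes had a median of 0 of 11 further markers and median depths of 24831 and 23130 UMIs. The 23 control and 37 SHP099 members with 10 or more such UMIs had a median of 9. Exactly 3 UMIs were found in 1 control and 3 SHP099 members, none of them in the core. Median depth was 6858 UMIs in control members (from 1332 to 38965) and 7070 in SHP099 members (from 693 to 46796). In all, 100 barcode sequences occurred in both libraries, 2 of them among the members.

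**Figure D1:**
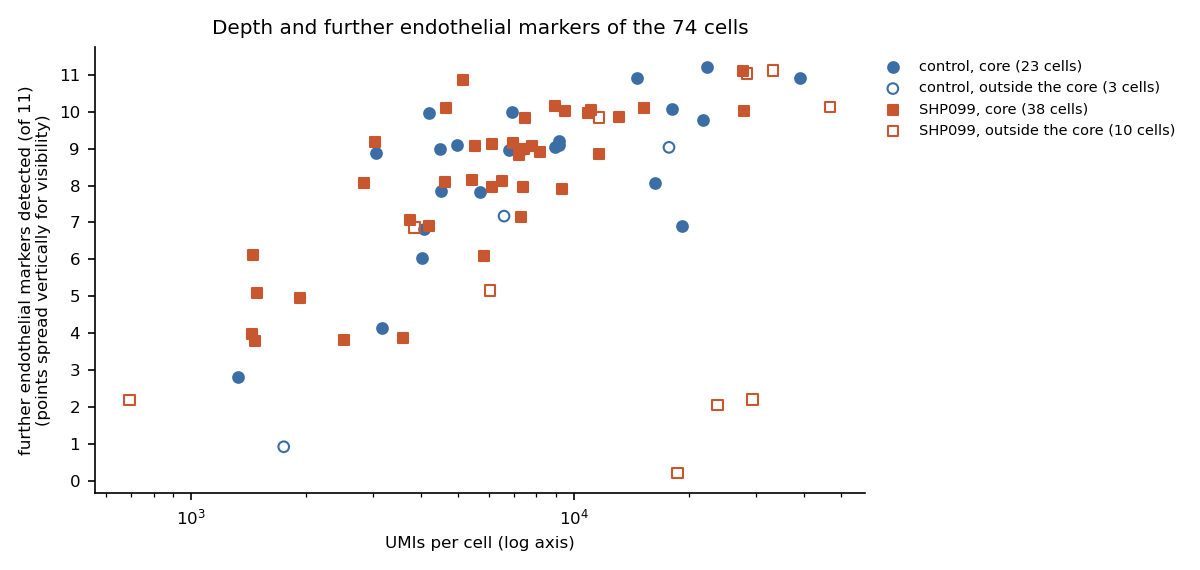
Each point is 1 member barcode, placed by its total UMIs (horizontal axis, log scale) and by how many of 11 endothelial genes outside the rule it holds (vertical axis), for control and SHP099. Core cells fill the upper part with a median of 9 genes, and 3 deep SHP099 barcodes with 0 to 2 genes stand apart at the lower right.

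Members made up 0.327% of control barcodes (exact binomial interval 0.214 to 0.479%) and 0.608% of SHP099 barcodes (0.448 to 0.805%). The ratio was 1.86, with an exact interval of 1.13 to 3.12. Core cells alone made up 0.289% (0.183 to 0.434%) and 0.481% (0.341 to 0.660%), and their ratio of 1.66 had an interval (0.966 to 2.92) that includes equal shares. Shares are of barcodes after dissociation, and survival of endothelial cells in that step was not tested.

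Which cells are counted decides many differences between the libraries. Among all members, 3525 genes had at least 30 UMIs over both libraries, and 173 of these (4.91%) were at least 2-fold higher and 108 (3.06%) at least 2-fold lower, with a median log2 ratio of -0.03. In the core, 87 of 2642 genes (3.29%) were at least 2-fold higher and 72 (2.73%) lower, with a median of -0.01. The genes with the largest ratios over all members were collagens and other matrix genes. Col3a1 stood at 60.3 and 1373 CPM (control and SHP099, in this order here and below), a log2 ratio of 4.51, followed by Col5a1 at 4.17, the matricellular gene Postn at 3.81 and Col6a2 at 3.59. These went with the fibroblast markers, which summed to 453 and 4095 CPM over all members and to 372 and 350 CPM in the core. The similar core sums rest on few cells. The 2 control core cells with UMIs of the lymphatic gene Prox1 held 26 and 50 of the 89 control UMIs. In SHP099, 1 core cell held 65 of 99. Without the Prox1 cells the core log2 ratio of these markers was 2.54, and Col3a1 in the whole core stood at 46.0 and 230 CPM. Pericyte and smooth muscle markers were at 328 and 738 CPM over all members and at 130 and 202 CPM in the core, and neutrophil, epithelial and muscle or fat cell markers were at 0 in all. The core leaves out barcodes rich in any of these marker lists, so lower core values of the fibroblast and pericyte markers follow from that limit. The summed pan-endothelial list, at 9914 and 7864 CPM over all members (log2 ratio -0.33), was at 10230 and 10560 CPM in the core (0.05, interval -0.03 to 0.12). That list holds the genes that define the core. Core values are therefore given below, with the value over all members where the sum of a list differs in direction.

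**Figure D2:**
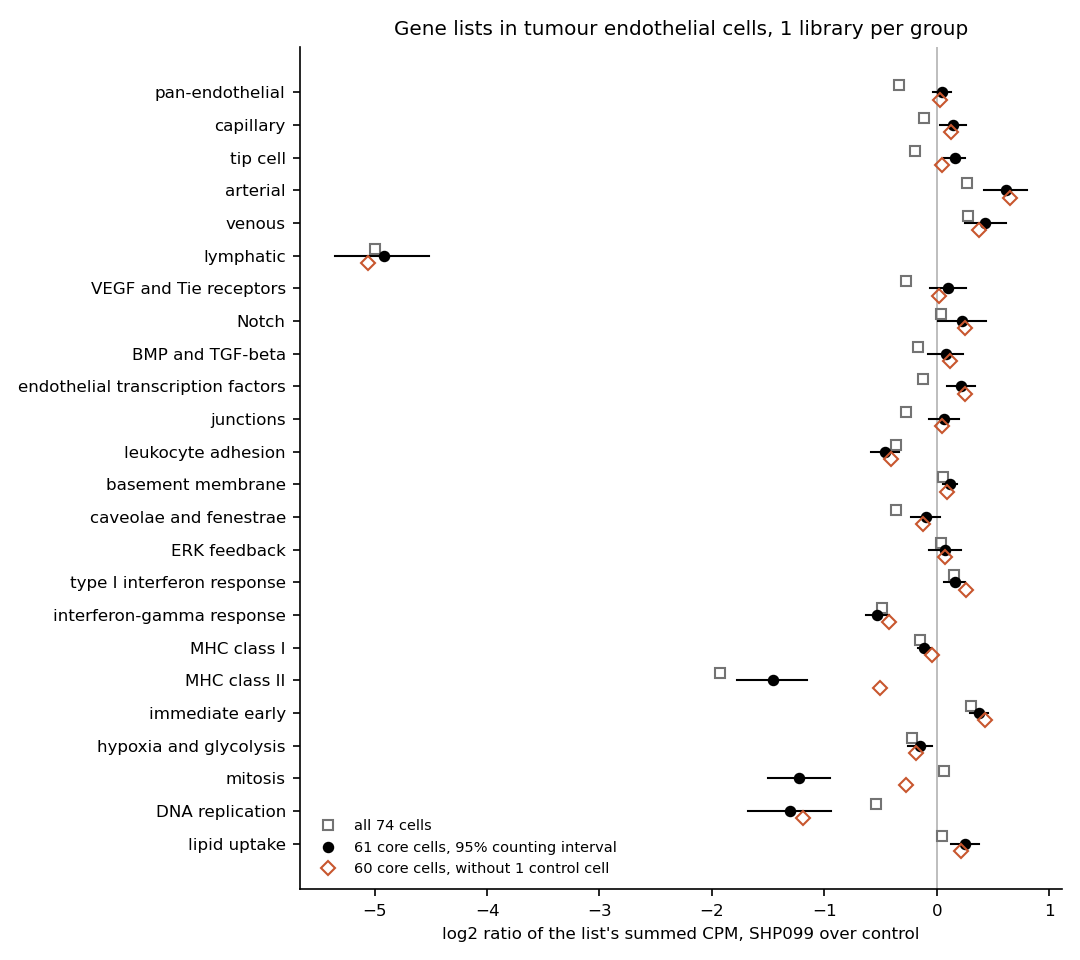
Log2 ratios of SHP099 over control (horizontal axis) for the summed CPM of each gene list, over all 74 members (squares), over the 61 core cells (filled circles, with 95% counting intervals as lines) and over 60 core cells without 1 control cell described further on (diamonds). The tip cell list goes from -0.19 over all members to 0.16 in the core, and the class II list from -1.46 in the core to -0.50 without that cell.

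Tip cell genes went apart, with the sprout markers at the high end. The list summed to 7018 and 7829 CPM in the core, a log2 ratio of 0.16 (0.07 to 0.25), and it was -0.19 over all members. Of its 20 genes tested in the core, 13 lay above 0 and 7 below, 5 were at least 2-fold higher and 1 at least 2-fold lower, with a median of 0.31. Esm1, which encodes the secreted proteoglycan endocan, had 24 UMIs in 5 of 23 control cells and 120 UMIs in 18 of 38 SHP099 cells. That is 100 CPM against 424 CPM, a log2 ratio of 2.08 (1.44 to 2.78). Cxcr4, the receptor through which tip cells sense Cxcl12, had 9 UMIs in 4 cells and 51 UMIs in 18 cells, a log2 ratio of 2.26 (1.23 to 3.47). Adm, the peptide adrenomedullin, had 7 UMIs in 5 cells and 36 UMIs in 13 cells (2.12, 0.93 to 3.53), and Apln, the tip cell ligand apelin, 24 UMIs in 5 cells and 69 UMIs in 12 cells (1.28, 0.59 to 2.02). Lxn, a carboxypeptidase inhibitor gene, had 30 and 79 UMIs in 14 and 21 cells (1.16). The member that was at least 2-fold lower was Ramp3, an adrenomedullin receptor subunit gene, with 29 and 10 UMIs, at 121 and 35.4 CPM. Core cells with at least 2 UMIs of Apln, Esm1, Cxcr4, Dll4 and Angpt2 together were about as frequent in both libraries. Their share was 65.2% in control (42.7 to 83.6%) and 71.1% in SHP099 (54.1 to 84.6%).

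The most abundant tip genes differed little. Igfbp3, which binds insulin-like growth factors, stood at 3488 and 3817 CPM (0.13). Dll4, the Notch ligand of tip cells, stood at 155 and 205 CPM (0.41, -0.21 to 1.04) and Angpt2, the Tie2 antagonist, at 126 and 163 CPM (0.38, -0.32 to 1.09), both within counting error. Mest, an imprinted gene, was lower at 598 and 329 CPM (-0.86), but at -0.15 with each cell counted alike.

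The share of core cells with a UMI of these genes was also compared at equal depth, as the mean over all ways of drawing a cell down to 2000 UMIs. That kept 22 control and 33 SHP099 cells and left out 1 and 5. Esm1 was found in 12.5% of control and 37.9% of SHP099 cells (21.7% and 47.4% at full depth). Phagocytes, which served as the background and had median depths of 4767 and 4796 UMIs, had Esm1 in 0 of 1762 control cells, which allows up to 0.170%, and in 0.0550% of SHP099 cells. Adm was found in 4.43% and 20.1% of core cells, against 0.681% and 0.385% of phagocytes, and Apln in 7.64% and 22.1%, against 0.0568% and 0.110%. Cxcr4 was found in 5.61% and 26.3% of core cells. Phagocytes carried it in 26.8% and 25.4%, so they are no background for that gene, and T cells carried it too.

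**Figure D3:**
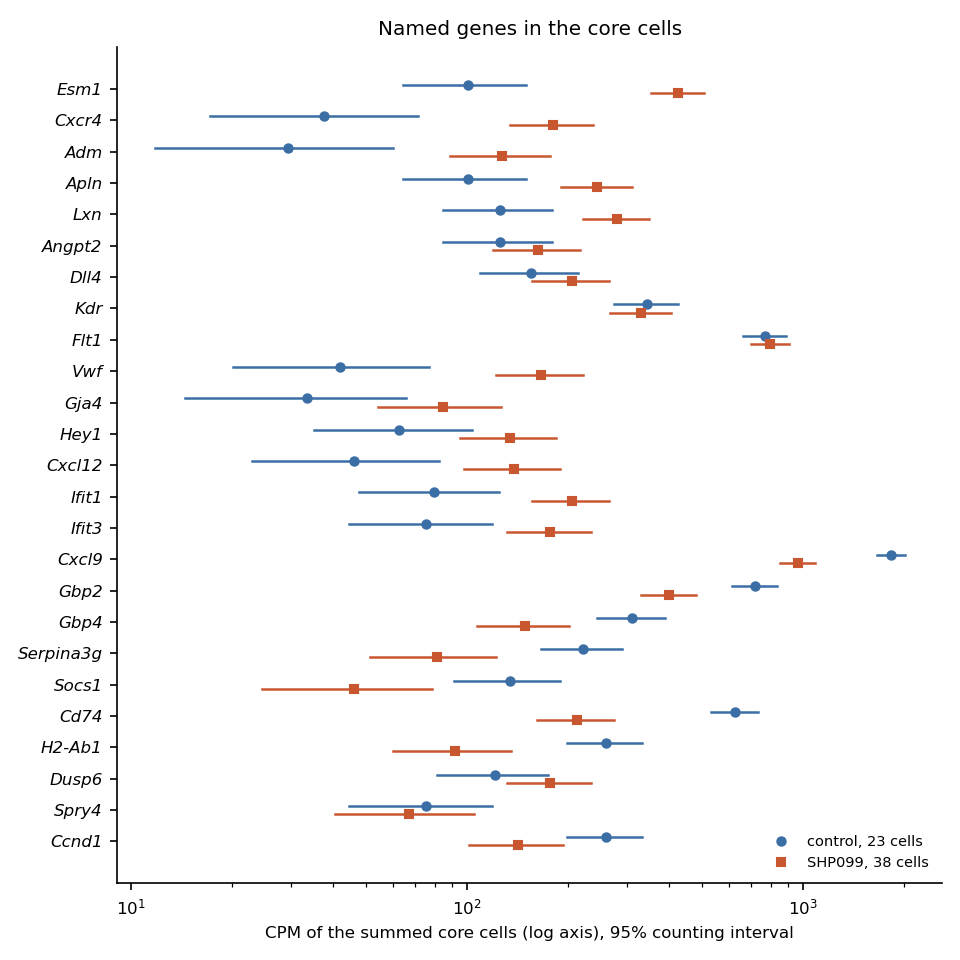
Level of each named gene (horizontal axis, CPM of the summed core cells on a log scale) in the 23 control cells (circles) and the 38 SHP099 cells (squares), with 95% counting intervals as lines. The intervals stand apart for Esm1 (100 and 424 CPM) and, in the other direction, for Cxcl9 (1824 and 962 CPM), and overlap for Kdr (343 and 329 CPM).

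Receptors of the VEGF and Tie systems did not follow the tip markers. Their list was at 2346 and 2515 CPM, a log2 ratio of 0.10 (-0.06 to 0.26), with 0 of 11 tested genes 2-fold apart. Over all members the ratio was -0.27 (-0.42 to -0.12), with 9 of 12 tested genes below 0. Kdr, the main VEGF receptor, stood at 343 and 329 CPM (-0.06, -0.50 to 0.39), and Flt1 at 770 and 800 CPM (0.06). Across the 61 core cells the tip list and this list had a Spearman correlation of 0.57 with the 3 shared genes left out, 0.78 over the 23 control and 0.45 over the 38 SHP099 cells. Such correlations are descriptions, because the cells share 2 libraries and differ in depth.

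Genes that answer to ERK as its feedback, the readout nearest to SHP2, showed no common direction. The list stood at 3074 and 3241 CPM (0.08, -0.07 to 0.22), and 0 of 11 tested genes were 2-fold apart. Dusp6, the ERK phosphatase gene, stood at 121 and 177 CPM (0.54, -0.14 to 1.26). The Sprouty gene Spry4 stood at 75.3 and 67.2 CPM (-0.16) and the immediate early gene Egr1 at 460 and 492 CPM (0.10). Ccnd1, the cyclin D1 gene, was lower, with 259 and 142 CPM (-0.87, -1.49 to -0.28), less than 2-fold. Ptpn11 itself gave only 7 UMIs in control and 13 in SHP099 core cells, too few to compare. The drug acts on the protein, so its RNA level is no check of the treatment.

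By summed level, arterial genes were the vessel type with the largest difference in the core outside the lymphatic list. They summed to 1464 and 2239 CPM, a log2 ratio of 0.61 (0.42 to 0.81), with 3 of 8 tested genes at least 2-fold higher, 0 lower and a median of 0.84. Over all members the ratio was 0.27, beside 0.28 for the venous list. The gap junction gene Gja4 had 8 and 24 UMIs (1.34, 0.14 to 2.71), in 4 of 23 and 7 of 38 cells. Hey1, a Notch target, had 15 and 38 UMIs (1.10, 0.20 to 2.07). The chemokine gene Cxcl12 had 11 and 39 UMIs (1.58, 0.59 to 2.70), but 0.76 without the cell richest in it in each library. Efnb2, an arterial ephrin, stood at 0.69 (-0.09 to 1.51) and Sox17, an arterial transcription factor, at -0.37 (-1.13 to 0.37), both within counting error. Per cell, the list ran from 611 through a median of 1164 to 7566 CPM in control and from 385 through 1841 to 19090 CPM in SHP099, so the libraries overlapped over most of their range. The share of core cells with at least 2 UMIs of Gja4, Gja5, Hey1, Sox17, Sema3g and Bmx together was not higher, at 47.8% and 44.7%. Other classes also held the list, collagen-rich barcodes at 1222 and 778 CPM and tumour cells at 1166 and 934 CPM.

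Venous genes were at 1702 and 2292 CPM (0.43, 0.25 to 0.61), with 2 of 11 tested genes at least 2-fold higher, 6 above 0 and 5 below, and a median of 0.17. The ratio was 0.19 without the Prox1 cells, 1 of which held 121 of the 648 SHP099 UMIs of the list, and 0.26 with each cell counted alike. The share of core cells with at least 2 UMIs of Ackr1, Selp, Sele, Nr2f2 and Vwf together was 56.5% and 44.7%. Vwf, the von Willebrand factor of larger vessels, had 10 UMIs in 6 control and 47 UMIs in 21 SHP099 cells, 41.8 against 166 CPM (1.99, 0.99 to 3.14). At equal depth it was found in 11.9% and 24.1% of core cells and in 1.14% and 0.550% of phagocytes. The proteoglycan gene Bgn had 28 and 174 UMIs (2.39), but 83 of the 174 were in 1 cell, and with each cell counted alike the ratio was 0.59. Capillary genes stood at 4567 and 5059 CPM in the core (0.15, 0.03 to 0.26) and at a ratio of -0.11 (-0.22 to -0.01) over all members. A lymphatic program with Ccl21a was carried by 2 control cells with UMIs of Prox1, the lymphatic master regulator. They held all 1173 UMIs of the lymph node chemokine gene Ccl21a, 893 of them in 1 cell, and 51 UMIs of Lyve1. The 2 SHP099 cells with Prox1 had no Ccl21a and 4 UMIs of Lyve1. But 1 of them, of 7275 UMIs, held 6 UMIs of Prox1 and 24 of the 51 lymphatic list UMIs in the SHP099 core. The lymphatic list ratio of -4.92 rests on the Prox1 cells and was -0.14 without them.

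Few cells with a UMI of Selp, the adhesion receptor P-selectin of venules, also had a UMI of Esm1. In control 6 core cells had Selp and 5 had Esm1, with 0 having both, and in SHP099 8 and 18 with 1 having both. Selp was in 26.1% and 21.1% of core cells and Esm1 in 21.7% and 47.4%. With these shares few cells would hold both even if the genes were unrelated, and the overlap was not tested. Another 10 and 12 cells had neither these nor Prox1. Detection of a gene also depends on the depth of the cell. Over both libraries the Selp cells held Thbs1 (thrombospondin) at 1572 CPM against 95.1 CPM in core cells without Selp and Bgn at 1413 against 140 CPM. A SHP099 cell with a single Selp UMI, which also had Esm1 and Prox1, held 103 of their 159 Thbs1 and 83 of their 143 Bgn UMIs, and without it Thbs1 stood at 764 and Bgn at 818 CPM. They held the leukocyte receptors Vcam1 at 395 against 85.6 CPM and Icam1 at 484 against 97.5 CPM. Gpihbp1, which anchors lipoprotein lipase in capillaries, was lower in them, at 583 against 1434 CPM, and the tip list stood at 3855 against 8324 CPM. Across the 61 core cells the tip and venous lists had a Spearman correlation of -0.48, -0.35 in control and -0.58 in SHP099. Of the Esm1 cells, 3 of 5 in control and 15 of 18 in SHP099 also had Cxcr4, and 3 of 5 and 14 of 18 also had Dll4. Among all core cells Cxcr4 was found in 4 of 23 and 18 of 38. Dll4 was found in 22.6% and 32.1% of core cells drawn down to 2000 UMIs, a lower depth than for these counts. The part of depth in these overlaps was not tested.

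**Figure D4:**
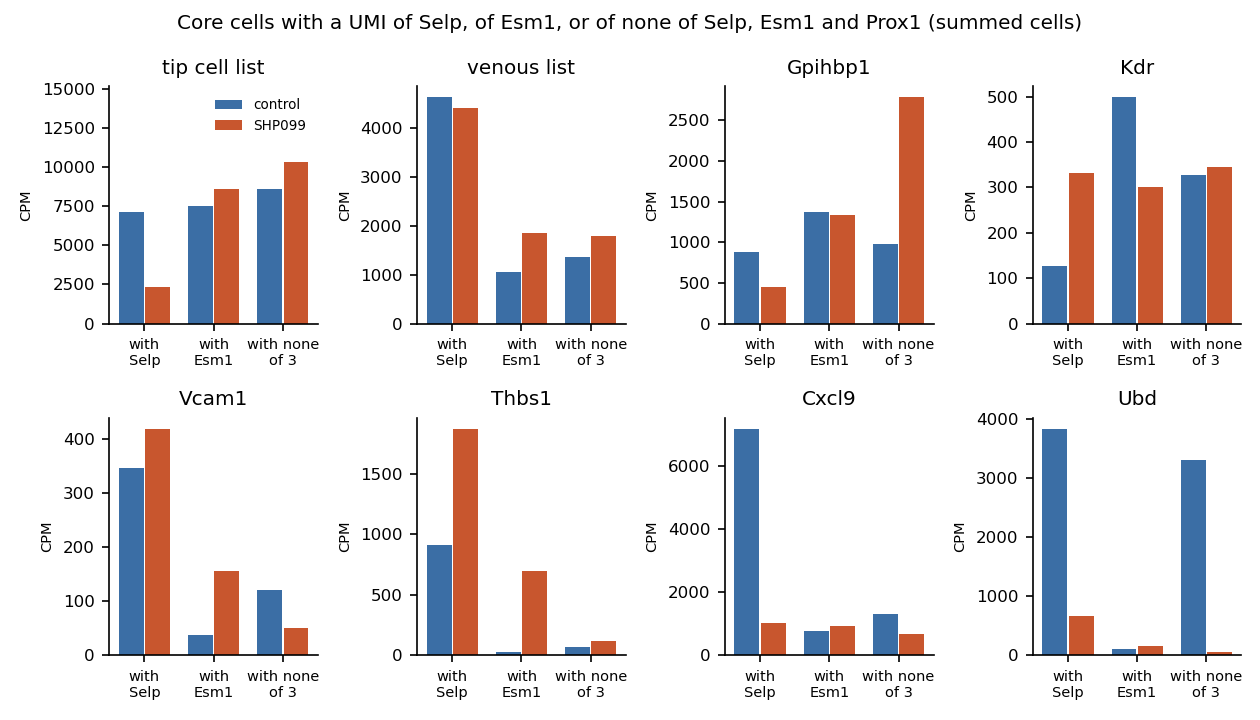
Bars give summed levels (CPM) of 2 lists and 6 genes in core cells with a UMI of Selp, with a UMI of Esm1 or with none of Selp, Esm1 and Prox1, for control and SHP099. The venous list and Vcam1 are highest in Selp cells of both libraries, 1 SHP099 cell counts under both Selp and Esm1, and Cxcl9 stands at 7199 CPM in the 6 control Selp cells and at 1009 CPM in the 8 SHP099 ones. Because Selp and Esm1 chose the cells, sums that include either gene, such as the tip cell list with Esm1, are a description only.

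Among regulators, the Notch list stood at 1288 and 1504 CPM (0.22, 0.01 to 0.44) and the BMP and TGF-beta list at 2614 and 2759 CPM (0.08, -0.08 to 0.23). Over all members the latter was at -0.17 (-0.31 to -0.03). Tgfb1, the TGF-beta1 ligand, was lower, with 81 and 42 UMIs at 339 and 149 CPM (-1.19, -1.76 to -0.63). Endothelial transcription factors summed to 3835 and 4443 CPM (0.21, 0.09 to 0.34), with 15 of 18 above 0. Over all members the ratio was -0.12 (-0.24 to -0.01), with 8 of 20 tested genes above 0. Mecom, an arterial and stem cell factor, was 2-fold higher, with 27 and 65 UMIs (1.03, 0.36 to 1.73). Meox1, a homeobox factor, was lower, with 42 UMIs in 14 of 23 cells and 14 UMIs in 8 of 38 cells (-1.83, -2.81 to -0.93).

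Structural genes differed less. The basement membrane list stood at 15500 and 16770 CPM (0.11, 0.05 to 0.18), with 13 of 20 tested genes below 0 and a ratio of 0.00 without the Prox1 cells. It held Col4a1 at 2087 and 2133 CPM and Sparc, a matrix glycoprotein, at 5751 and 6463 CPM. Junction genes stood at 3534 and 3700 CPM in the core (0.07, -0.07 to 0.20) but were lower over all members (-0.27, -0.39 to -0.15). Genes of caveolae and fenestrae stood at 3814 and 3562 CPM (-0.10). The leukocyte adhesion list was lower in sum, at 4663 and 3396 CPM (-0.46, -0.58 to -0.33). Its median was -0.12 and 2 of 13 tested genes were at least 2-fold higher, and the sum includes the abundant chemokine Cxcl9. Icam1 was lower at 222 and 131 CPM (-0.76) and Vcam1 stood at 113 and 173 CPM (0.62, -0.09 to 1.35). Lipid uptake genes were at 3881 and 4620 CPM (0.25), with Fabp4 at 2058 and 2250 CPM.

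Genes that respond to interferon-gamma were lower in sum, while those of type I interferon were not. A large part of the control sum lay in few cells, described below. The interferon-gamma list summed to 6922 and 4797 CPM in the core, a log2 ratio of -0.53 (-0.63 to -0.42). Of 18 tested genes 14 lay below 0, 3 were at least 2-fold lower and 0 at least 2-fold higher, with a median of -0.41 against -0.01 for all genes. The ratio was -0.49 over all members and -0.83 with each core cell counted alike. Cxcl9, a chemokine that draws T cells through Cxcr3, was at 1824 and 962 CPM (-0.92, -1.15 to -0.70), in 19 of 23 and 25 of 38 cells. The guanylate-binding protein gene Gbp2 was at 719 and 400 CPM (-0.85, -1.20 to -0.50), in all 23 control and 24 of 38 SHP099 cells. Gbp4 was at 310 and 149 CPM (-1.06, -1.64 to -0.49), in 20 and 17 cells. The protease inhibitor gene Serpina3g was at 222 and 81.4 CPM (-1.45, -2.22 to -0.71), in 13 and 7 cells, and Socs1, the feedback inhibitor of cytokine signalling, had 32 and 13 UMIs (-1.54). The transcription factor gene Irf1 did not differ beyond counting error (-0.20, -0.93 to 0.54), nor did the GTPase gene Iigp1, at 594 and 573 CPM (-0.05).

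At equal depth Gbp4 was found in 51.3% of control and 20.8% of SHP099 core cells, against 7.78% and 4.79% of phagocytes, and Gbp2 in 62.1% and 44.1%. Serpina3g was found in 33.4% and 10.8% of core cells, against 9.19% and 9.03% of phagocytes, so the SHP099 share lies near that of phagocytes. The shares for Cxcl9 were 61.5% and 60.4%, against 82.6% and 65.8% at full depth. The 5 SHP099 core cells too shallow for the draw had no Cxcl9 UMI, so the similar shares hold only for the deeper cells. Most of the difference in the list lay in the Selp cells, where it stood at 20340 CPM in the 6 control and 5550 CPM in the 8 SHP099 cells, against 4863 and 4552 CPM in core cells without Selp. In control 3 of the 6 Selp cells held 233, 191 and 140 of their 647 UMIs of the list, and in SHP099 1 of the 8 held 227 of 385. Each of these cells had only 1 UMI of Selp, so its place among the Selp cells rests on 1 molecule. A control cell of 22349 UMIs without Selp held 256 UMIs of the list. With the 3 control Selp cells above, it held a large part of the 1655 list UMIs in the control core. The ratio without all of these cells was not computed. Cxcl9 stood at 7199 and 1009 CPM in the Selp cells and at 999 and 947 CPM outside them. Without the SHP099 cell that had Selp, Esm1 and Prox1, the SHP099 levels in Selp cells were 8263 CPM for the list and 1686 CPM for Cxcl9.

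**Figure D5:**
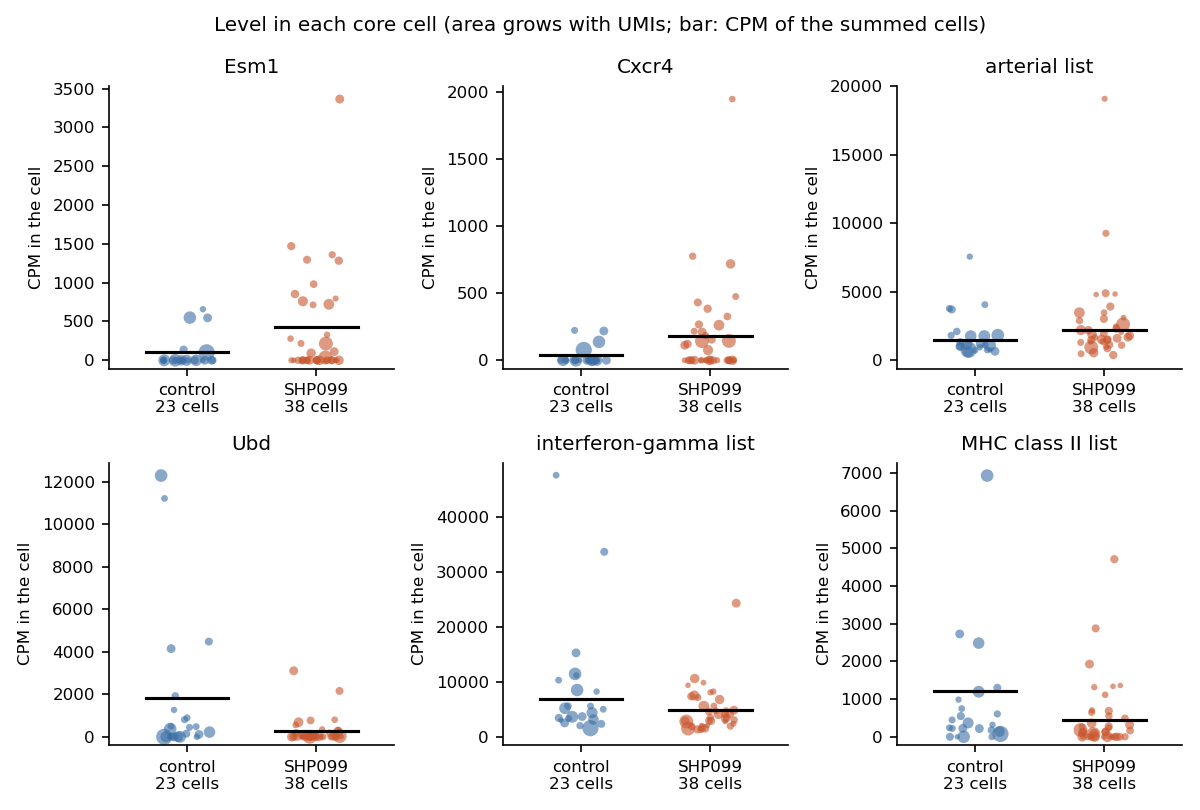
Each point is 1 core cell (23 control, 38 SHP099) with its level in CPM of Esm1, Cxcr4, the arterial list, Ubd, the interferon-gamma list and the class II list, its area growing with its UMIs, and the bar marks the CPM of the summed cells. The interferon-gamma levels of the libraries overlap widely (medians 5017 and 3792 CPM), and the highest cell, at 47650 CPM, is in control.

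Type I interferon genes summed to 6788 and 7592 CPM (0.16, 0.07 to 0.26), with 18 of 26 tested genes above 0, 5 at least 2-fold higher, 1 lower and a median of 0.27. With each cell counted alike the list ratio was -0.03. Ifit1, which binds foreign RNA, had 19 UMIs in 7 control cells and 58 UMIs in 19 SHP099 cells (1.37, 0.60 to 2.20), or 0.23 with each cell counted alike. Xaf1 had 32 and 79 UMIs in 14 and 31 cells (1.06, 0.45 to 1.70) and 1.03 with each cell alike. Isg15, the ubiquitin-like modifier, stood at 456 and 566 CPM (0.31). Ifi27l2a was lower, at 690 and 280 CPM (-1.30). In the same libraries phagocytes had the type I list at 6928 and 9388 CPM and the interferon-gamma list at 3492 and 3096 CPM, and T cells had them at 5319 and 8616 CPM and at 2419 and 2737 CPM. Whether endothelial cells differed from these classes in their response was not tested. Across the 61 core cells the type I and interferon-gamma lists had a Spearman correlation of 0.50.

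The interferon-stimulated response element was about as frequent in the promoters of both interferon lists, while the gamma-activated site was more frequent in the interferon-gamma list. Promoters were taken from RefSeq on GRCm38.p6, from 250 bases before to 50 after each gene's start, and searched on both strands. The interferon-stimulated response element, searched as 2 copies of TTTC with any 2 bases between them, occurred in 3.44% of 32851 promoters, in 17 of 30 matched genes of the type I list and in 11 of 19 matched genes of the interferon-gamma list. The gamma-activated site, searched as TTCNNNGAA, occurred in 8.30% of all promoters, in 5 of 30 and in 10 of 19. The Y box, known from class II genes and searched as CTGATTGG, occurred in 4.10% of all promoters, in 3 of 6 matched class II genes, in 7 of 16 class I genes, in 5 of 19 genes of the interferon-gamma list and in 0 of 30 of the type I list. The 4 promoters below show the same response element in Gbp2, which was lower, and Ifit1, which was higher, a gamma-activated site in Serpina3g, and the Y box in H2-Aa. Capitals mark the matches and the letters run 5′ to 3′ on the strand of the gene.
Gbp2, chr3:142620413-142620712, + strand: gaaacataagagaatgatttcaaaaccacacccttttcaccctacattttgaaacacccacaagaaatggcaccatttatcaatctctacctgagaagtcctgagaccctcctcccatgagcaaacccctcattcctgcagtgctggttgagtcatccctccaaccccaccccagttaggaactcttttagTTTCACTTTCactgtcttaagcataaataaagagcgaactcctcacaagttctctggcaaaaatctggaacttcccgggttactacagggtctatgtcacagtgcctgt
Ifit1, chr19:34640639-34640938, + strand: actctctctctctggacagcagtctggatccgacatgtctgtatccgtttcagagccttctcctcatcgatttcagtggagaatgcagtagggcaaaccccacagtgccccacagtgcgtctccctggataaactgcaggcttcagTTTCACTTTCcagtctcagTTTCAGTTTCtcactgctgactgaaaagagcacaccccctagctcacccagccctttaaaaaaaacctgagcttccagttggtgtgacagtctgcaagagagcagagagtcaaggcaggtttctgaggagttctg
Serpina3g, chr12:104235897-104236196, + strand: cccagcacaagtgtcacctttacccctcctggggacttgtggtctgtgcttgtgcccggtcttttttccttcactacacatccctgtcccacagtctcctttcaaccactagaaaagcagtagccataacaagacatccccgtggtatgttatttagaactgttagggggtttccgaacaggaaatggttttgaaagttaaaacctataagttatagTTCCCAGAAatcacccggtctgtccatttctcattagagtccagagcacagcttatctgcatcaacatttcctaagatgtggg
H2-Aa, chr17:34287774-34288073, - strand: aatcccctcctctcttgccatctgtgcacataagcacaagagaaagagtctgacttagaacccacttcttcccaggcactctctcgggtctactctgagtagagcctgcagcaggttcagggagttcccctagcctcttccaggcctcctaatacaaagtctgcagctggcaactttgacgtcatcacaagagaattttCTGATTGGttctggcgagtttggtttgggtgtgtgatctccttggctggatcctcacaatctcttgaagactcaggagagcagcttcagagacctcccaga
The element begins 59 bases before the start of Gbp2 and 104 and 85 bases before that of Ifit1, the gamma-activated site 33 bases before that of Serpina3g and the Y box 51 bases before that of H2-Aa. A match describes letters and not a bound factor.

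MHC class I genes, which present peptides on all cells, were nearly alike, at 19360 and 17940 CPM (-0.11, -0.17 to -0.05), with 14 of 16 tested genes below 0 but none 2-fold apart. The light chain gene B2m stood at 9067 and 9095 CPM (0.00). The immunoproteasome gene Psmb9 was at 289 and 156 CPM (-0.89) and the proteasome activator gene Psme1 at 343 and 180 CPM (-0.93).

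MHC class II genes and Ubd were lower in SHP099, and a large part of their control level came from 1 cell. Class II genes summed to 1217 and 442 CPM (-1.46, -1.78 to -1.15), with 4 of 5 tested genes at least 2-fold lower. The invariant chain gene Cd74 was at 627 and 212 CPM (-1.56) and H2-Ab1, a class II beta chain, had 62 and 26 UMIs (-1.50). Ubd, a ubiquitin-like modifier induced by interferon-gamma and TNF, had the lowest ratio among the genes that met the naming rule, with 432 and 73 UMIs at 1807 and 258 CPM (-2.81). A control cell of 22349 UMIs, with all 11 further endothelial markers, 48 UMIs of Xist, 5 of Mki67 and 7 of Top2a, held 155 of the 291 class II UMIs and 275 of the 432 Ubd UMIs in control. Without it the class II ratio was -0.50 (-0.87 to -0.14) and that of Ubd -1.49 (-1.91 to -1.08). Ubd was found at equal depth in 51.6% of control and 25.4% of SHP099 core cells, against 1.82% and 1.38% of phagocytes. Cd74 was found in 35.6% and 25.95% of core cells. T cells had the class II list at 321 and 428 CPM and phagocytes at 25210 and 23050 CPM, so the level in SHP099 core cells is near that of T cells, and the part of free RNA in it was not tested. Phagocyte markers in the core were at 188 and 212 CPM, but the core limit caps these markers in each cell.

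The same cell weighed on other genes. Without it 89 of 2532 genes (3.52%) were at least 2-fold higher and 52 (2.05%) at least 2-fold lower in the core. The interferon-gamma list stood at -0.43, Cxcl9 at -0.79, Gbp2 at -0.63, Gbp4 at -0.87, Serpina3g at -1.32, Socs1 at -1.68, Meox1 at -1.75 and Tgfb1 at -1.20. Esm1 stood at 1.94, Cxcr4 at 2.12, Adm at 1.98 and Apln at 1.14, and the tip list at 0.04.

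Mitosis genes depended on which cells were counted. They were at 1388 and 1447 CPM over all members (0.06) and at 1363 and 584 CPM in the core (-1.22, -1.50 to -0.95), and at -0.27 (-0.60 to 0.05) without the control cell just described, which held 173 of the 326 mitosis UMIs in control. Stmn1, a tubulin regulator, moved from -1.43 to -0.38 and Tuba1b, a tubulin, from -1.29 to -0.54. Replication genes stood at 811 and 329 CPM (-1.30), or -1.19 without that cell.

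Immediate early and stress genes, which dissociation also induces, were higher in the core, at 8444 and 10930 CPM (0.37, 0.29 to 0.45), with 19 of 23 tested genes above 0. Jun stood at 594 and 1090 CPM (0.88), Fos at 991 and 1316 CPM (0.41) and Btg2 at 109 and 297 CPM (1.45), while the heat shock gene Hspa1a was lower at 368 and 177 CPM (-1.06). Phagocytes had this list at 7977 and 9467 CPM. The nuclear RNA Malat1 was at 18760 and 35940 CPM in core cells (0.94, 0.89 to 0.99) and at 23490 and 24010 CPM in phagocytes. It was also higher in T cells (21470 and 26180 CPM), collagen-rich barcodes (24970 and 32850 CPM) and tumour cells (14230 and 18000 CPM). The median mitochondrial share of members was 2.77% and 3.13%. The part of handling in the other differences was not tested. Hypoxia and glycolysis genes stood at 5546 and 4995 CPM (-0.15).

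The rule for naming genes was met by 210 genes in the core, 103 higher and 107 lower. Beside Bgn, Cxcr4 and Esm1, the highest ratios included those of the tetraspanin gene Tspan6, at 75.3 and 248 CPM (1.72, 0.95 to 2.55), the chromatin gene Arid5b (1.46), Btg2, the palmitoyltransferase gene Zdhhc20 (1.41), Fstl1 (1.39) and Ifit1. After Ubd and Serpina3g, the lowest were those of Stmn1, the fatty acid carrier Fabp5 (-1.34), Ifi27l2a, Tuba1b, the transglutaminase gene Tgm2 (-1.21), Tgfb1, the GTPase gene Gimap5 (-1.17) and Hmgb2 (-1.15). Fabp5 stood at -0.25 without the cell richest in it in each library. Over all members the lowest were Ubd (-3.14), Serpina3g (-1.79), Meox1 (-1.75), Gbp4 (-1.39), Sema3f (-1.32), Tinagl1 (-1.31), Pdlim5 (-1.29), Tgm2 (-1.29), Wars (-1.28) and Gimap5 (-1.26), of which Ubd, Serpina3g, Tgm2 and Gimap5 also stood among the 10 lowest in the core.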

How the data were processed

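The authors deposited filtered matrices of UMI counts for 2 libraries, for which the submitters' processing notes name Cell Ranger and mm10 (GRCm38). Per the file headers the format is 3.1.0. The version of the software was not given in the sources used here, nor was the annotation. The counts, over 31053 features of which 71 share a symbol, were used as deposited. Barcodes with at least 200 genes and at most 20% mitochondrial UMIs were kept, and members were chosen by raw counts. Scrublet called 0 control and 1 SHP099 member a doublet, and none was removed. Member UMIs were summed per library, 265186 in control and 485014 in SHP099 (core 239098 and 282671), and scaled to CPM. Log2 ratios have exact conditional 95% intervals, shares exact Clopper-Pearson ones and sums exact Poisson ones, for counting error only. Genes with at least 30 UMIs over both libraries were compared, and 2-fold was the limit. No test was made with 1 library per group.

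Phagocytes, T cells, collagen-rich barcodes and tumour cells were taken by raw counts of their markers. Each could hold at most 1 UMI of the 4 rule genes, or 2 in collagen-rich barcodes. Of the collagen-rich barcodes, 71.9% and 86.0% lacked Xist. Genes were named as the 10 highest and 10 lowest ratios among those with at least 60 UMIs, found in at least 20% of cells of the higher library, with an interval that leaves out equality, the same direction with each cell counted alike and without the richest cell, and a level of at least 0.1 of the highest other class. Genes of ribosomes, mitochondria, immunoglobulins and haemoglobin, predicted or Y-linked genes and Xist were not eligible, and 1 gene that met the rule is not reported here. List members and markers are named beyond this rule, and the kinds of cell by Selp, Esm1 and Prox1 were chosen after their values were seen. The members and the 24 lists, with 438 symbols of which 437 are in the files, were chosen with earlier results of these data known. The ratios, their intervals and the 2-fold call were tested on simulated sums per gene. Those held no single cells, so the choice of members, the core and the draws were not tested, nor was the spread between cells. Tools were Python 3.11.15, numpy 2.4.6, scipy 1.17.1, pandas 2.3.3, scanpy 1.11.5, anndata 0.12.19, matplotlib 3.10.9, R 4.3.3 and edgeR 4.0.16, the last for the normalization factors (TMM) of 1 alternative only.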

Additional observations from a re-analysis of the deposited data

How the results depend on the processing

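No paired analysis was possible because each group had 1 library, and for the same reason no library was left out. The alternatives that take out barcodes with few endothelial markers or with markers of another cell type, the core cells, the control cell rich in class II RNA and the core versions that count cells alike or leave out the richest cell were chosen after seeing the data. Counting a list ratio as called when it was 2-fold or more, no called value reversed, but smaller ratios turned sign. Of 24 lists 8 did so in the core, 10 in the core without the richest cells, 7 with no Tyrobp, 5 with each cell alike and 0 with TMM. Calls were also lost and gained. The class II ratio of -1.92 over all members became -0.72 with each cell alike. The lymphatic ratio of -5.00 became -0.14 in the core without Prox1 cells. The mitosis ratio of 0.06 over all members became -1.22 in the core. Of the list ratios recomputed, 197 moved by less than their counting error and 187 by more. With 26 and 48 cells, genes under 30 UMIs were not compared.

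Genes at least 2-fold higher numbered 173 of all members, 271 with each cell counted alike, 28 with a minimum of 100 UMIs, 1058 with no minimum, 76 without barcodes of another type, 87 in the core and 89 in the core without the control cell. Genes at least 2-fold lower numbered 108, against 14 with the minimum of 100 UMIs, 1089 with none, 71 without barcodes of another type and 52 in the core without the control cell. TMM scaling moved the higher share among these genes from 61.6% to 71.1%.

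The list ratios over all members were -0.33 for pan-endothelial and -0.19 for tip genes. They became -0.13 and 0.032 with at least 5 UMIs of the rule genes, -0.13 and 0.055 with at least 3 of the 4 genes, -0.056 and 0.18 with no Tyrobp, -0.52 and -0.61 with no tumour gene UMI, -0.23 and -0.093 without the Scrublet call, -0.10 and 0.052 with each cell alike, -0.25 and -0.10 with TMM, and -0.13 and 0.028 without barcodes of few markers. In the core they were 0.046 and 0.16, or -0.025 and 0.12 without Prox1 cells, 0.033 and 0.043 without the control cell, 0.11 and 0.26 without the richest cells, and 0.018 and 0.14 with each cell alike.

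The arterial ratio was 0.27 and became 0.49 with each cell alike, 0.61 in the core, 0.53 without Prox1 cells, 0.65 without the control cell, 0.62 without the richest cells and 0.59 with core cells alike. The type I interferon ratio of 0.15 became -0.093 with no Tyrobp, 0.036 with each cell alike, 0.24 with TMM, and in the core 0.30 without Prox1 cells, 0.26 without the control cell, 0.25 without the richest cells and -0.032 with cells alike. The interferon-gamma ratio of -0.49 became -0.99 with no Tyrobp, -0.73 with each cell alike, -0.70 without the deepest cells, and in the core -0.64 without the richest cells and -0.83 with cells alike. The class II ratio of -1.92 became -2.26 with no tumour gene UMI, -0.72 with each cell alike, -1.46 in the core, -1.43 without Prox1 cells, -0.50 without the control cell, -0.94 without the richest cells and -0.71 with core cells alike. The mitosis ratio of 0.06 became -0.23 with at least 5 rule UMIs, -0.22 with at least 3 of the 4 genes, -1.11 with no Tyrobp, -0.23 without the Scrublet call and -0.23 without barcodes of few markers. In the core it was -1.22, and -1.27 without Prox1 cells, -0.27 without the control cell, -0.95 without the richest cells and -0.62 with cells alike.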
